A study of Drosophila melanogaster with 8 samples.

Results

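The outermost 1 Mb of the assembled chromosome arms 2L, 3L, X and 3R of Drosophila melanogaster, on the side of the telomere, was examined for enrichment of linker histone H1. The spans are 1-1000000 on 2L, 3L and X, where the telomere lies at the low coordinates, and 26905054-27905053 on 3R, where it lies at the high coordinates (FlyBase r5). A region belonged to a span when its midpoint lay inside it. Of the 16190 H1-enriched regions in the authors' combined list, 356 (2.20%) met this rule, with 93 on 2L, 50 on 3L, 74 on X and 139 on 3R. They were 3.06% of the 11620 combined regions on these 4 arms, and the spans made up 4.09% of the arms' sequence. The ends of other chromosomes were not analysed here.

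H1 was mapped by chromatin immunoprecipitation and sequencing in embryos of the wild-type strain Oregon-R at 14 to 16 h of development, collected from flies kept in population cages. The labels give 4 immunoprecipitated libraries, each with its own list of enriched regions, and 4 input libraries that were not analysed here. The antibody is named in the labels only by its target, and the fixation protocol gives the embryos only an upper age limit of 16 h. The labels do not state separate embryo collections for the 4 replicates, so the spread between them may be technical. The replicate lists held 49, 45, 62 and 57 regions of the spans among 2820, 2185, 2886 and 3410 regions in all for replicates 1 to 4. Replicate 2 had the shortest list. Read counts are not part of the lists. The depth per library is therefore unknown, and sequence with no region is not shown to lack H1.

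H1 binds the nucleosome where DNA enters and leaves it and is known for compacting chromatin. In Drosophila it is needed for the structure of heterochromatin and for silencing of transposable elements. The ends of Drosophila chromosomes are peculiar in that telomeric retrotransposons (HeT-A, TAHRE and TART) maintain them in place of telomerase. Next to these arrays lie satellite-like repeats, the telomere-associated sequence, in which inserted reporter genes tend to be silenced. How much of the arrays and repeats lies within the assembled arms, and how many reads could be placed there, was not tested.

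The telomere-side 1 Mb was covered more thinly by H1 regions than the rest of the arm on 2L, 3L and X. On 3R the 2 overlapped between replicates. Over the 4 arms together, regions covered 2.04%, 1.81%, 2.48% and 2.25% of the telomere-side bases in replicates 1 to 4, against 3.56%, 2.69%, 3.55% and 4.25% of the rest. The 2 sets of values do not overlap. The mean was 2.15% ± 0.29 at the telomere side and 3.51% ± 0.64 in the rest (SD, n = 4). The log2 ratio was -0.70 ± 0.19 (SD, n = 4), that is 0.61 times the coverage of the rest, and it was negative in 4 of 4 replicates. An exact permutation test by two-sided sign flips of the 4 replicates gave p = 0.13, adjusted 0.156 over 5 comparisons by the Benjamini-Hochberg method. With 4 replicates this test cannot give a smaller p than 0.13, so no comparison of this kind could pass 0.05. The 4 arms include 3L, whose low coverage at the end was known before the tests were chosen. In the combined list the coverage was 15.4% at the telomere side and 22.8% in the rest. Region counts gave the same picture, with 13.3 ± 1.9 regions per Mb at the telomere side and 21.2 ± 3.6 in the rest (SD, n = 4). Replicates 1 and 2 carry experiment numbers close to each other in the labels, as do replicates 3 and 4. The mean log2 ratio over the 4 arms was -0.69 in the first set and -0.72 in the second. Within arms the sets differed more, with -0.30 and -0.75 on 2L, -2.79 and -1.42 on 3L, -0.50 and -1.05 on X, and -0.31 and -0.14 on 3R, the first set given first. Each set holds 2 replicates, and the difference between sets was not tested.

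**Figure D1:**
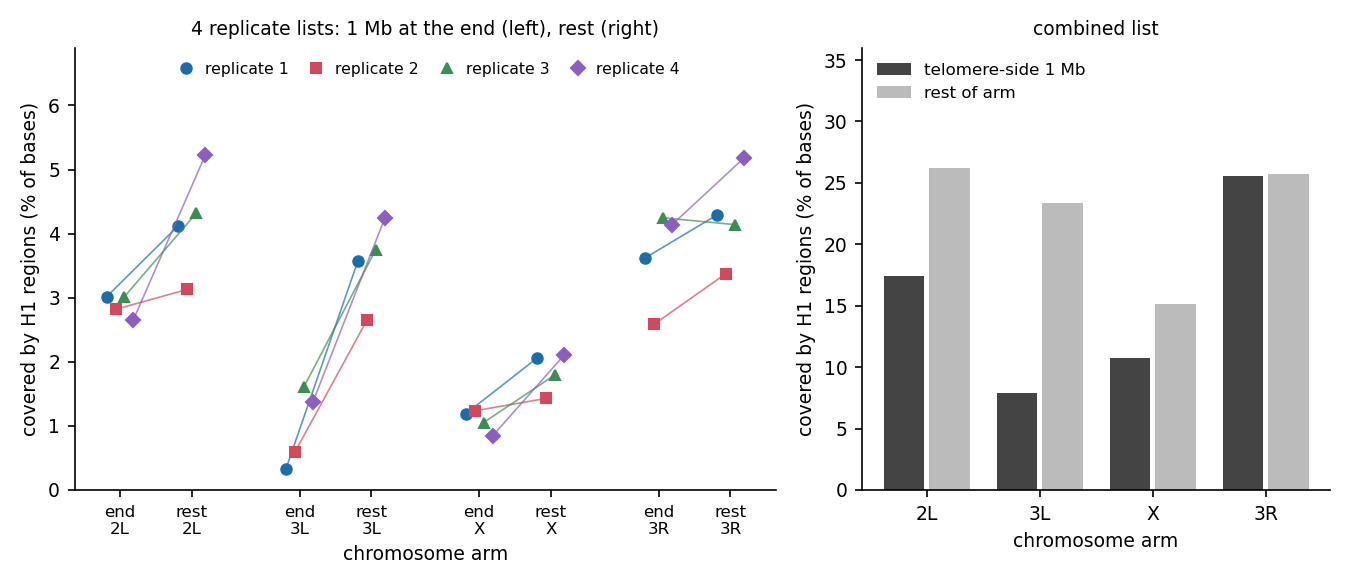
Percent of bases covered by H1 regions in the telomere-side 1 Mb (left of each pair) and in the rest of the same arm (right of each pair). Left panel, one point per replicate list joined by a line; right panel, bars for the authors' combined list. On 2L, 3L and X every replicate was lower at the telomere side, and on 3R replicate 3 was slightly higher there.

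Relative to the rest of its arm, the end of 3L was the emptiest of the 4. In covered share alone the end of X was lower in replicates 3 and 4, at 1.05% and 0.84%. The telomere-side 1 Mb of 3L held 2, 4, 11 and 9 regions in replicates 1 to 4. These covered 0.33%, 0.59%, 1.61% and 1.37% of it, against 3.57%, 2.65%, 3.75% and 4.24% of the rest of the arm. Even the highest telomere-side value, that of replicate 3, lay below the lowest value of the rest. The log2 ratio averaged -2.11 ± 0.96 (SD, n = 4) and ranged from -3.42 in replicate 1 to -1.22 in replicate 3. The exact sign-flip permutation p was 0.13 (adjusted 0.156). The low coverage of this span was known before the test was chosen, so this p is no independent support. In the combined list 7.87% was covered at the telomere side and 23.3% in the rest, a log2 ratio of -1.57.

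Much of the 3L coverage sat at the inner edge of the span. The innermost 100 kb, 3L 900001-1000000, held 21 of the 50 combined regions and 46.8% of the covered bases. Replicates 1 to 4 covered 1.77%, 4.44%, 4.52% and 6.37% of it. After seeing the data the span was also shortened to 900 kb. This takes out the dense innermost 100 kb, so a lower ratio was built in. With this span the log2 ratio of 3L was -3.07 ± 1.33 (SD, n = 4). For the combined list this span gave -2.33. With the span widened to 2 Mb it was -1.28 ± 0.32 (SD, n = 4).

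The end of X was also thinly covered, on an arm that is sparsely covered as a whole. Replicates 1 to 4 had 8, 7, 7 and 6 regions there, which covered 1.19%, 1.23%, 1.05% and 0.84% of the span. The rest of X was covered at 2.06%, 1.43%, 1.80% and 2.11%. The lowest value of the rest, in replicate 2, lay above the highest of the telomere side. The log2 ratio was -0.78 ± 0.45 (SD, n = 4) and negative in 4 of 4 replicates (exact sign-flip permutation p = 0.13, adjusted 0.156). In the combined list the telomere side was covered at 10.8% and the rest at 15.1%.

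On 2L the number of telomere-side regions was nearly the same in each replicate, at 18, 18, 18 and 17, although the lists differed in length. Their coverage was 3.01%, 2.82%, 3.02% and 2.66%, against 4.12%, 3.13%, 4.32% and 5.22% in the rest of 2L. The telomere side was lower in every replicate. The closest values of the 2 groups were 3.02% in replicate 3 at the telomere side and 3.13% in replicate 2 in the rest. The log2 ratio was -0.52 ± 0.34 (SD, n = 4), with the weakest value of -0.15 in replicate 2 and the strongest of -0.97 in replicate 4 (exact sign-flip permutation p = 0.13, adjusted 0.156). The combined list gave 17.4% at the telomere side and 26.2% in the rest. The size of the 2L difference depended on the setting. With a span of 500 kb the log2 ratio was -2.21 ± 1.42, and with a span of 2 Mb it was -0.15 ± 0.24 (SD, n = 4). With lists cut to equal numbers of regions it was -0.26 ± 0.19 (SD, n = 4). When the regions below the median score of each list were dropped, it was -0.08 ± 0.31 (SD, n = 4), with 2 of 4 replicates lower at the telomere side.

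At the end of 3R the coverage was on average closer to that of the rest of its arm than on the other arms, with the span of 1 Mb. Its 21, 16, 26 and 25 regions in replicates 1 to 4 covered 3.62%, 2.58%, 4.25% and 4.14% of the span, against 4.29%, 3.38%, 4.14% and 5.18% of the rest. The 2 sets of values overlap. The log2 ratio was -0.23 ± 0.19 (SD, n = 4), negative in 3 of 4 replicates and 0.04 in replicate 3 (exact sign-flip permutation p = 0.25, adjusted 0.25). In replicate 2 it was -0.38, a larger difference than the -0.15 of 2L and the -0.21 of X in that replicate. The combined list gave 25.6% at the telomere side and 25.7% in the rest. The value rested in part on the dense innermost 100 kb. With a span of 900 kb, chosen after seeing the data, these dense 100 kb count with the rest, so a lower ratio was built in. The log2 ratio was then -0.50 ± 0.23 (SD, n = 4), and its sign is no separate support. It was -0.63 ± 0.54 with a span of 500 kb, -0.33 ± 0.19 with 2 Mb and -0.13 ± 0.19 without the outer 100 kb (SD, n = 4).

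Each arm was also divided into windows of 1 Mb from the telomere-side end. In the combined list the first window of 3L was the least covered of 24, at 7.87%, where the other 23 ranged from 13.6% to 32.2% with a median of 24.4%. It was also the lowest in replicates 1, 2 and 4, and in replicate 3 only 1 window was lower. Counted from the lowest, the first window of X ranked 4 of 22 in the combined list and 6, 9, 6 and 2 in replicates 1 to 4. That of 2L ranked 6 of 23 in the combined list and 7, 11, 7 and 4 in replicates 1 to 4. On 3R the first window stood in the middle of the combined list, with 13 of the 26 other windows below it. It ranked 11, 11, 18 and 11 of 27 in replicates 1 to 4. The next window of 3L was covered at 2.13% ± 0.83 and the one after it at 4.96% ± 1.15 (SD, n = 4), with 16.0% and 28.8% in the combined list. In the combined list the second Mb of 3L was still below the median window and the next one above it. On X the window 2 Mb from the end, at 0.83% ± 0.41 (SD, n = 4), was lower than the first, at 1.08% ± 0.18 (SD, n = 4). The end was thus not the thinnest window of X.

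**Figure D2:**
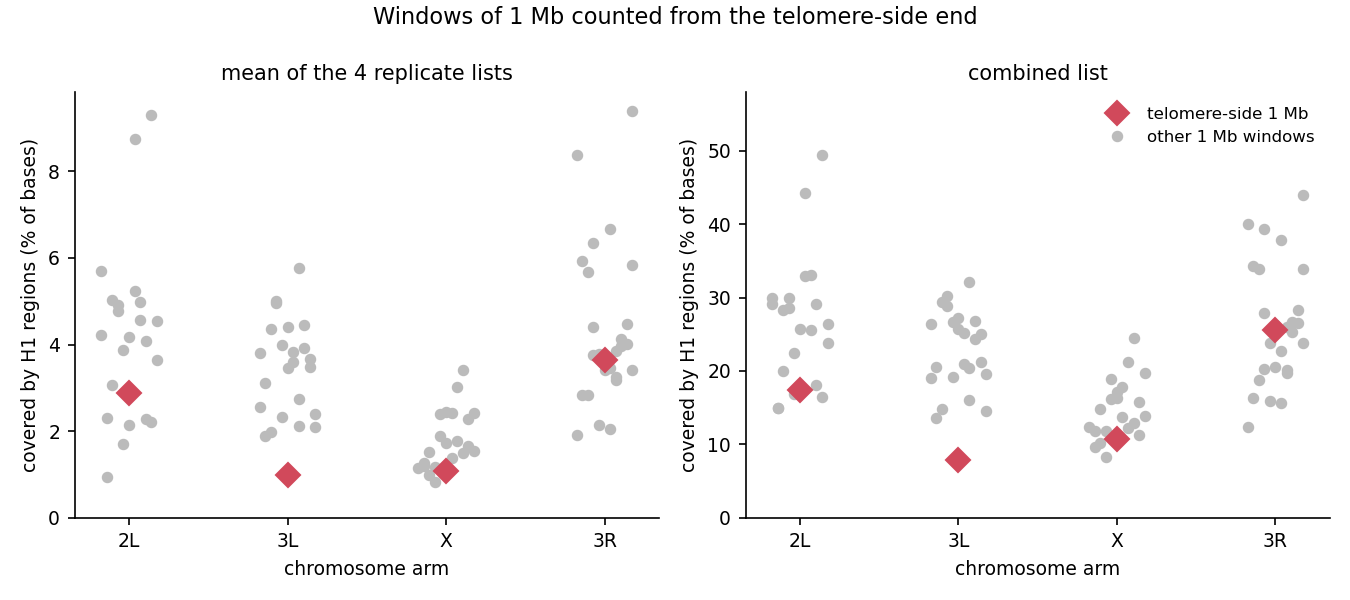
Percent of bases covered by H1 regions in windows of 1 Mb counted from the telomere-side end of each arm, as the mean of the 4 replicate lists (left) and in the combined list (right). Red diamonds are the telomere-side window and grey circles the other windows, spread sideways for legibility. The diamond of 3L lies below all other windows of its arm in the combined list, at 7.87%, and that of 3R lies among the middle ones.

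Differences between arms in the log2 ratio of the telomere side over the rest were set out replicate by replicate. The end of 3L had the lowest ratio with the span of 1 Mb. Its low coverage was known before the tests were chosen. Its log2 ratio minus that of 3R was -1.88 ± 0.90, minus that of 2L -1.58 ± 1.12 and minus that of X -1.33 ± 1.14 (SD, n = 4). Each of these differences was negative in 4 of 4 replicates, but they were larger in replicates 1 and 2 than in replicates 3 and 4. The means of the sets were -2.47 and -1.28 against 3R, -2.49 and -0.68 against 2L, and -2.28 and -0.37 against X. With a span of 500 kb the difference 3L minus 2L was -0.41 ± 2.13 (SD, n = 4), with an exact sign-flip permutation p of 0.75. The ratio of X minus that of 2L was -0.25 ± 0.13 and negative in 4 of 4 replicates, and X minus 3R was -0.55 ± 0.51 and negative in 3 of 4 (SD, n = 4). The ratio of 3R minus that of 2L was 0.29 ± 0.40 (SD, n = 4) and positive in 3 of 4 replicates. The exact sign-flip permutation p was 0.13 for the 4 pairs with a common sign (adjusted 0.188 over 6 pairs), 0.25 for X and 3R (adjusted 0.3) and 0.375 for 3R and 2L (adjusted 0.375). The place of X relative to 2L turned round in the combined list, where X was higher by 0.10, and with a span of 500 kb, where X was higher by 1.51 ± 1.14 (SD, n = 4). With a span of 2 Mb the difference 3R minus 2L was -0.18 ± 0.37 (SD, n = 4).

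Within the telomere-side 1 Mb, coverage over the 4 arms was lower in the outer 500 kb than in the inner 500 kb. This was clearest on 2L, and the replicates had no common direction on X. On 2L the outer part was covered at 1.08%, 2.19%, 0.28% and 0.97% in replicates 1 to 4, and the inner part at 4.95%, 3.44%, 5.76% and 4.35%. The difference, outer minus inner, was negative in every replicate and averaged -3.50 ± 1.75 percentage points (SD, n = 4). Of the 93 combined regions on 2L, 17 lay in the outer and 76 in the inner 500 kb. On 3L the difference was -0.62 ± 0.42 percentage points and negative in 4 of 4 replicates, and on 3R -1.45 ± 1.34 and negative in 3 of 4 (SD, n = 4). In replicate 1 the 3L difference was -0.04, with 1 region in each part. The inner part includes the innermost 100 kb, covered at 4.28% ± 1.89 on 3L and 8.93% ± 3.84 on 3R (SD, n = 4). The other inner steps of 100 kb on 3L had means of 0.37% to 0.71%, against 0.67% for the outer part. On 3R they had means of 1.55% to 5.71%, against 2.92%. On X the outer part was covered at 1.14% ± 0.27 and the inner at 1.02% ± 0.13 (SD, n = 4), with 2 replicates in each direction. The combined list had the opposite order on X, with 9.35% in the outer and 12.2% in the inner part. Over the 4 arms the outer part averaged 1.47% ± 0.19 and the inner part 2.83% ± 0.41 (SD, n = 4). The exact sign-flip permutation p was 0.13 for 2L, 3L and the 4 arms together (adjusted 0.208 over 5 comparisons), 0.25 for 3R (adjusted 0.312) and 0.5 for X (adjusted 0.5).

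In steps of 100 kb the coverage was uneven, and the densest step of each arm had coverage in all 4 replicate lists. Of the 40 steps on the 4 arms, 13 had coverage in all 4 replicate lists and 5 in none. These counts were not made for the rest of the arms, and whether they exceed what scattered regions give was not tested. The densest step of the combined list was 3R 26905054-27005053, the innermost of that span, covered at 63.0%. Replicates 1 to 4 covered it at 13.5%, 5.40%, 10.6% and 6.16%. On 2L the densest step was 700001-800000, at 51.2% in the combined list and 12.5%, 7.76%, 19.0% and 8.66% in the replicate lists. The densest step of X, 800001-900000, reached 23.2%, and that of 3L, 900001-1000000, reached 36.8%. The thinnest steps were 100001-200000 on X at 1.23%, 400001-500000 on 3L at 1.45%, 100001-200000 on 2L at 2.46% and 27505054-27605053 on 3R at 8.81%. Across the 40 steps any 2 replicates had a Pearson correlation of coverage of 0.52 to 0.80 and a Spearman correlation of 0.44 to 0.76, over the 6 pairs. The steps share their libraries and differ between arms, so these coefficients are a description.

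**Figure D3:**
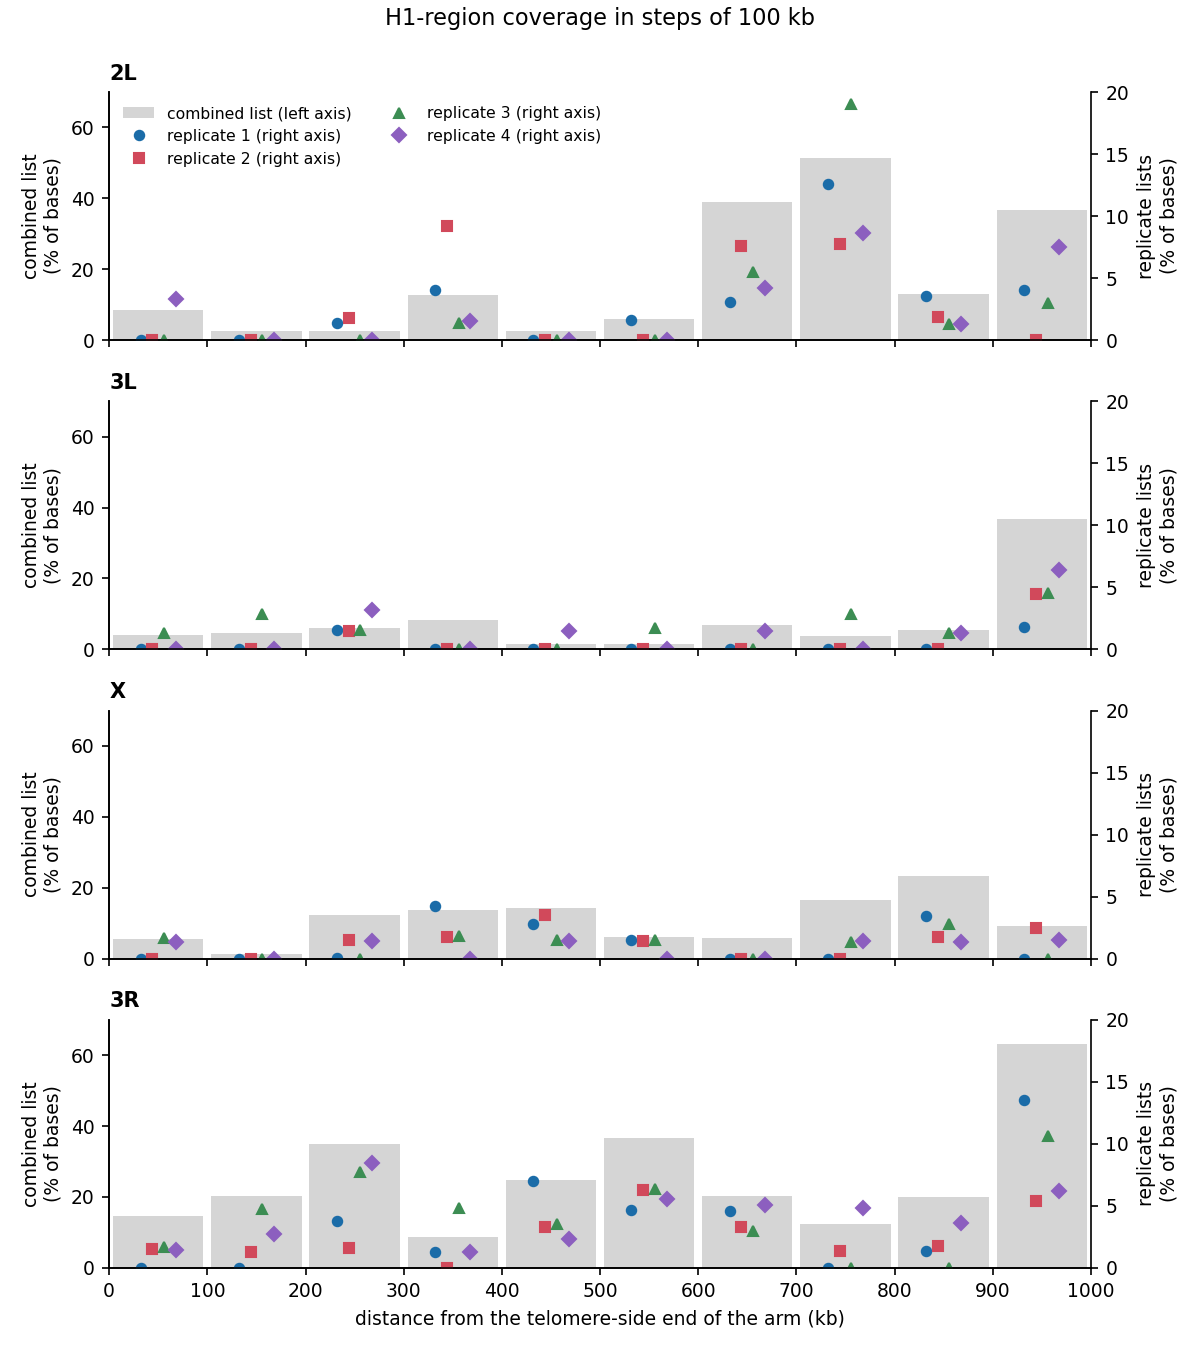
Percent of bases covered by H1 regions in steps of 100 kb, by distance in kb from the telomere-side end of 2L, 3L, X and 3R. Grey bars are the combined list (left axis) and coloured points the 4 replicate lists (right axis, on a different scale). On 2L the coverage is concentrated in the inner steps, with 51.2% of the step at 700 to 800 kb. On 3L it is concentrated in the innermost step, at 900 to 1000 kb, with 36.8%.

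No list had a region within the last 25 kb of any of the 4 arms. Longer empty stretches were frequent elsewhere in the combined list. The rest of 3R had 48 as long as 55.1 kb, and the rest of X 12 as long as 113.9 kb. The outermost combined region of 2L, 25147-28102, began 25.1 kb from the end, was 2956 bp wide and was touched by replicate 4. Those of 3R (27869592-27871356, 33.7 kb from the end), X (41695-42755, 41.7 kb) and 3L (62905-64282, 62.9 kb) had no counterpart in a replicate list. In the outermost 100 kb the combined list had 10 regions on 3R, 5 on 2L, 5 on X and 3 on 3L, which covered 14.6%, 8.61%, 5.39% and 3.93% of those steps.

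In the replicate lists the first region usually lay farther in. On 3R it lay at 257.7, 61.0, 51.8 and 45.7 kb from the end in replicates 1 to 4, and without replicate 1 the mean fell to 52.9 kb, against 104.1 ± 102.6 kb with it (SD, n = 4). On 2L it lay at 263.6, 216.1, 328.6 and 25.9 kb, so that replicate 4 alone had a region in the outermost 200 kb. On 3L the distances were 286.6, 279.5, 78.5 and 218.6 kb, and replicate 3 alone came within 200 kb. On X they were 299.99, 277.6, 88.8 and 46.3 kb. The longest replicate list, that of replicate 4, came closest to the end on 2L, X and 3R, but not on 3L. The values on all arms spread widely between replicates, and the order of the arms was not tested.

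Long stretches without any combined region lay inside 3 of the spans. The longest on 3L ran over 165.1 kb, at 416023-581147, and in the rest of that arm 1 stretch was as long. On 2L it ran over 119.0 kb, at 434793-553818, where the rest of the arm had 5 as long. Neither of these stretches held a region of any replicate list. On X the longest was 113.9 kb, at 83358-197232, with 12 as long in the rest of X, and replicate 3 had a region in it. The longest on 3R, 27395603-27450685, was 55.1 kb, with 48 as long in the rest of that arm, and replicate 2 had a region in it. The median distance between neighbouring combined regions was 4.96 kb at the end of 3L and 2.19 kb in the rest of 3L. It was 2.43 and 1.70 kb on 2L, 3.46 and 2.76 kb on X, and 2.11 and 1.69 kb on 3R, with the telomere side first in each pair.

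**Figure D4:**
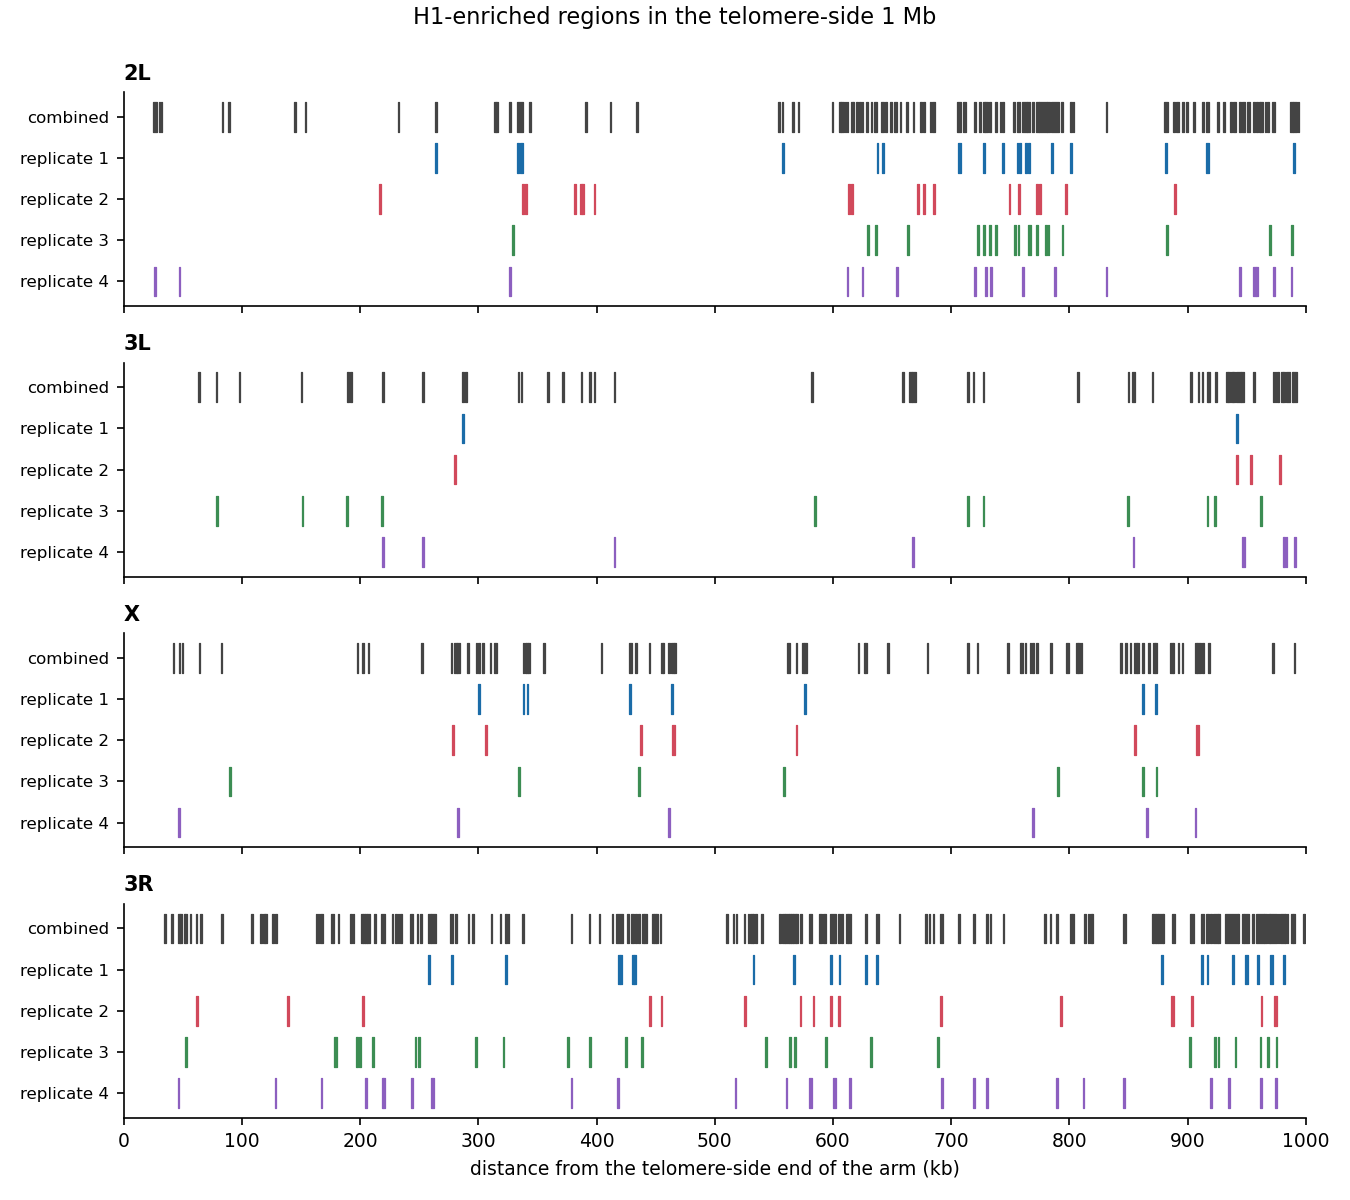
Positions of H1-enriched regions in the telomere-side 1 Mb of 2L, 3L, X and 3R, by distance in kb from the end of the arm. Each track is one list, with the combined list on top, and each block is a region drawn with an outline that slightly widens it. The longest stretch without a combined region, 165.1 kb, is the empty stretch of 3L that starts 416 kb from the end.

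The share of single regions that a replicate list touched was smaller at the telomere side than in the rest of the arms, in counts that were not tested. Of the 356 combined regions, 137 (38.5%, exact 95% binomial interval 33.4% to 43.8%, for counting error only) were touched by at least 1 replicate list by 1 bp or more. The share over the whole combined list was 44.2%, and over the rest of these arms 44.7%. The counts were 44 of 93 on 2L (47.3%), 55 of 139 on 3R (39.6%), 19 of 50 on 3L (38.0%) and 19 of 74 on X (25.7%). In the rest of these arms the shares were 48.0% on 2L, 48.6% on 3R, 44.1% on 3L and 34.0% on X. Without replicate 3 or without replicate 4 the share at the end of 3L was 22.0%. Leaving out a list cannot raise such a share, and the shares of the rest without these replicates were not computed. Only 5 of the 356 regions (1.40%) were touched by 3 or 4 replicate lists, against 3.56% of the whole combined list. Combined regions were made from the same libraries as the replicate lists.

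In the combined list wide regions were touched more often, and fewer of the telomere-side regions were wide. Of the 356, 23 (6.46%) were at least 3000 bp wide, against 11.6% of the whole combined list. Within width classes the touched shares were as follows. Among regions of 1001 to 1499 bp, 20.9% of 182 were touched at the telomere side and 23.7% of 5192 in the rest. Among those of 1500 to 2999 bp the shares were 51.0% of 151 and 55.7% of 4722. Of the 23 widest regions 22 were touched (95.7%), against 87.5% of 1350 in the rest. The telomere-side share was lower in the 2 narrower classes and higher in the widest. Replicate lists also covered less of the telomere side, at a mean of 2.15% against 3.51% of the rest. The part of width or of this coverage in the touched shares was not tested.

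The 5 regions with support from 3 or 4 replicates lay on 3R and 2L. Both regions touched by all 4 lay in the densest step of 3R. The region 3R 26929089-26935275, 6187 bp wide, was covered over 36.6%, 37.2%, 21.9% and 24.4% of its length by replicates 1 to 4. The neighbouring 3R 26940406-26946935, 6530 bp wide, was covered over 26.2%, 21.9%, 20.4% and 26.0%. Each replicate list thus marked only a part of these wide regions. No base of the 4 spans was covered in all 4 replicate lists, and in the rest of the arms only 0.126% of the covered bases were.

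The widest region of the 4 spans, 3R 26962453-26973386, spanned 10934 bp in the same step and was touched by replicates 1, 3 and 4. Another region on 3R, 27302835-27307517 (4683 bp), was touched by replicates 1, 2 and 4. The only such region on 2L, 755555-758120 (2566 bp), was touched by replicates 1, 2 and 3, which covered 83.5%, 52.7% and 52.4% of it. Which genes lie there was not analysed here.

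The end of 3L held no region touched by more than 2 lists. Its widest, 941079-944930 (3852 bp), was touched by replicates 1 and 2. On 2L the widest was 784383-791598 (7216 bp), with support from replicates 1 and 4. On X it was 312853-315906 (3054 bp), with support from none.

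The regions next to the limit of 1 Mb did not differ in a common direction. Just inside it lay 2L 993294-994369, 3L 989609-992598, X 989813-990846 and 3R 26905298-26906298, with scores of 0.47, 0.42, 0.51 and 0.47. Just outside it lay 2L 1020495-1022238, 3L 1014260-1015424, X 1007101-1008155 and 3R 26902875-26903950, with scores of 0.42, 0.46, 0.46 and 0.39. On 2L, X and 3R the region inside the limit had the higher score, and on 3L the one outside it.

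The Jaccard index of 2 lists divides the bases they share by the bases that either holds. Over the 6 pairs of replicates it averaged 2.68% ± 1.36 at the telomere side and 5.88% ± 0.69 in the rest of the 4 arms (SD over pairs). It was lower at the telomere side in 6 of 6 pairs. On 3R the coverage of the end and the rest was closest on average. The index there was 2.57% ± 1.22 at the end and 6.48% ± 0.50 in the rest. It was lower at the end in 6 of 6 pairs. On 2L it was 3.04% ± 2.94 and 6.51% ± 0.93, lower at the end in 5 of 6 pairs. On X it was 3.07% ± 5.11 and 3.18% ± 0.91, lower in 3 of 6, and on 3L 3.34% ± 6.79 and 5.68% ± 1.08, lower in 5 of 6. On 3L 4 of the 6 pairs shared no base at the end, and on X 3 of 6. Pairs share replicates and sparser lists overlap less by construction, so these values were not tested.

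The combined list held a smaller share of the telomere-side regions of replicates 2 and 3 than of their whole lists. It touched 27 of 45 telomere-side regions of replicate 2 (60.0%) and 41 of 62 of replicate 3 (66.1%), against 76.2% and 76.7% of those whole lists. For replicate 1 it touched 48 of 49 (98.0%) and for replicate 4 55 of 57 (96.5%), against 96.6% and 97.0% of the whole lists. On 3L, 3 of the 4 telomere-side regions of replicate 2 had no counterpart in the combined list. The other arms also had such regions. Over the 4 spans they numbered 18 of 45 in replicate 2 and 21 of 62 in replicate 3.

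In width and score, the regions near the telomere lay close to those of the rest in the replicate lists. The score is the authors' own positive value per region, of unknown scale, and is used only within a list. In the replicate lists the median width was 1512 ± 47.2 bp at the telomere side (SD, n = 4), 0.99 ± 0.03 times that of the rest. The median score was 1.03 ± 0.04 times that of the rest over the 4 arms, 1.07 ± 0.06 on 2L, 1.07 ± 0.09 on 3L, 1.01 ± 0.04 on 3R and 1.00 ± 0.04 on X (SD, n = 4). On 2L the ratio was above 1 in 4 of 4 replicates, with an exact sign-flip permutation p of 0.13, adjusted 0.625 over 5 comparisons. For the other score ratios the exact p was between 0.25 and 1, and for the widths between 0.375 and 1. None of the 213 telomere-side regions in the replicate lists was 3000 bp wide or more, where 1.41% to 2.65% of regions in the rest were.

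Scores of the combined telomere-side regions ran from 0.24 to 2.13 with a median of 0.40. On X and 3R the highest-scoring regions were narrow and lacked replicate support. The highest on X, 63430-64471, had a score of 2.13 and a width of 1042 bp, close to the list's lower limit of 1001 bp. The highest on 3R, 27160442-27161518, had a score of 1.29 and a width of 1077 bp. Neither was touched by a replicate list. On 3L the highest-scoring region, 358144-359528, had a score of 0.49 and was touched by none, and on 2L 880414-883364, with 0.52, was touched by replicates 1 and 3. The 166 combined regions of highest score, about 1 in 100, included 3 of the 356, 2 on X and 1 on 3R, and 0 of these 3 were touched by a replicate list. Of all 166, 18 were touched.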

How the data were processed

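Bowtie 0.12.7 was used for alignment, per the submitters' processing notes. Coordinates are on FlyBase r5, per the file headers. The authors deposited lists of enriched regions in which every region has start and end coordinates and a score. Each immunoprecipitated library has its own list, and a combined list covers the 4 together. The caller, its thresholds, the scale of the score and the way replicates were combined were not given in the sources used here. Replicate lists held no region below 1301 bp, and the combined list none below 1001 bp.

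Covered shares are covered bases over all bases of a span, with regions clipped at its ends and no correction for gaps or repeats. The rest of an arm runs from the span to the other end of the assembled arm. Log2 ratios were taken within each replicate list and tested over the 4 replicates by exact two-sided sign flips, with Benjamini-Hochberg adjustment within each family. The combined list was described without a test. Functions were tested on simulated lists with known ratios. Python 3.11.15, numpy 2.4.6, scipy 1.17.1 and matplotlib 3.10.9 were used.

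The spans, measures and tests were chosen with earlier results of these data known, among them the low coverage of the first 1 Mb of 3L. Regions are named by a fixed rule: per arm the outermost, widest and highest-scoring combined region, every region touched by 3 or 4 replicate lists (at most 6 per arm), the longest empty stretch and the extreme steps of 100 kb. The regions on either side of the limit of 1 Mb were named in addition to this rule. The gene table at hand is on Release 6, another build, so no genes were assigned and no sequences are shown.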

Additional observations from a re-analysis of the deposited data

Results flagged for a closer look

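Over 30 values with 4 replicates each, 2 had a replicate that stood far from the other 3. For independent values chance would give 1.5, about 1 in 20. The values are not independent, since those over the 4 arms reuse the regions of the single arms, so 1.5 is only a rough guide. In the coverage of the outer minus the inner 500 kb over the 4 arms, replicate 2 stood apart at -0.93 percentage points, where the other 3 lay between -1.53 and -1.48. In the distance of the outermost region from the end of 3R, replicate 1 stood apart at 257.7 kb, where the other 3 lay between 45.7 and 61.0 kb. The list of replicate 2 is the shortest, with 2185 regions, and that of replicate 1 holds 2820. The part of list length in these values was not tested.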

How the results depend on the processing

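Of 313 alternative values, 17 changed sign, and 28 counts, shares or distances moved beyond their tolerance. The other 268 kept their sign or stayed within it, and a log2 value that kept its sign could still change in size. This was the case, by over 1.5 times, for 14 of 69 coverage ratios and 19 of 78 differences between arms. The log2 coverage ratio was negative under all 69 alternatives run for it, from -2.21 to -0.08 on 2L, -3.07 to -1.28 on 3L, -0.97 to -0.40 on X, -0.63 to -0.01 on 3R and -1.25 to -0.47 over the 4 arms. The span of 900 kb among these was added after seeing the data, and on 3L and 3R its lower ratio was built in. A mean with 1 replicate left out cannot change sign where all 4 replicates share it. This was the case on 2L, 3L, X and the 4 arms together, so those signs were fixed in advance. When regions below the median score were dropped, 1 list had none at the end of 3L, so no log2 value was computed, and the difference in coverage was -1.17 ± 0.15 percentage points (SD, n = 4). The values that changed sign concerned X, the difference 3R minus 2L, or ratios of width or score. On the combined list, X minus 2L was 0.10, the outer minus inner coverage of X was -2.84 percentage points, the log2 width ratio was -0.19 on X and -0.0374 on 3R, and the log2 score ratio on 3R was -0.0242. With a span of 500 kb, X minus 2L was 1.51. With a span of 2 Mb, 3R minus 2L was -0.18 and the log2 score ratio of X 0.0359. With regions merged across gaps under 500 bp, the log2 width ratio was 0.00766 on 2L and -0.00134 on X. Leaving out 1 replicate at a time, it ran from -0.090 to 0.00833 on 3L, -0.063 to 0.033 on X, -0.021 to 0.027 on 3R and -0.031 to 0.000858 over the 4 arms, and the log2 score ratio of X from -0.030 to 0.016. Leaving out 1 replicate cannot raise the share of combined regions touched. That share then ran from 36.6% to 41.9% on 2L, 22.0% to 38.0% on 3L, 27.3% to 35.3% on 3R and 27.2% to 34.0% over the 4 arms. With an overlap of 50% of the combined region it was 36.6% on 2L, 24.0% on 3L and 29.8% over the 4 arms. Combined regions numbered 46 on 2L, 30 on 3L, 47 on 3R and 177 in all at or above the median score. With 500 kb they numbered 17 on 2L, 18 on 3L, 32 on X, 62 on 3R and 129 in all, and with 2 Mb 222, 147, 147, 258 and 774. At or above the median score the outermost replicate regions lay on average 396.2 kb from the end on 2L, 494.3 kb on 3L and 266.4 kb on 3R. The cause of these changes was not tested, beyond the fewer or wider regions that each setting leaves. Between H1 and input libraries no paired analysis was possible because all 4 region lists belong to 1 group. The input libraries with the same replicate numbers have no values used here. The tested ratios and differences were taken within each replicate list. Depth is unknown, so no limit on what could be detected can be given.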
